A study of Arabidopsis thaliana with 6 samples.

Results

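The 44 genes described here are the core machinery of the cell cycle and of DNA replication in Arabidopsis thaliana. They were chosen by locus, among 38189 genes in the deposited counts, as the D3 cyclins, the cyclin-dependent kinases (CDKs) and their inhibitors, the E2F and retinoblastoma-related factors, MCM2 to MCM7, PCNA, ribonucleotide reductase, the mitotic cyclins, the Aurora kinases, the activators of the anaphase-promoting complex (APC/C) and cytokinesis genes. RNA-seq libraries came from 3 samples of the hb34 mutant and 3 samples of the wild type (WT), both in the Columbia background. All 6 samples carried the treatment label mock. The plants were 10 days old and had been grown on diluted Murashige and Skoog medium at 22 °C with 16 h of light and 8 h of darkness. The labels call the tissue leaves, whereas the extraction protocol names seedlings. The labels name the genotype only, without the kind of allele. Nothing says whether the replicates came from separate plants, so p-values measure only the spread between these samples.

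Cell division in plants starts when D-type cyclins bind CDKA;1 and the resulting kinase phosphorylates the retinoblastoma-related protein RBR1. RBR1 then releases the E2F transcription factors, which turn on genes for DNA synthesis. Genes of G2 phase and mitosis are switched on later, by MYB3R factors that bind a short promoter element called MSA. In young leaves, cells leave this cycle for the endocycle, in which DNA is replicated without division, and the inhibitors of the SIAMESE family and the CCS52A activators of APC/C promote that switch. HB34, the gene mutated here, encodes a zinc finger homeodomain transcription factor.

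HB34 had 1.02, 2.27 and 1.18 CPM (counts scaled by library size, given for replicates 1 to 3) in hb34, against 83.3, 91.7 and 93.0 CPM in WT. All hb34 libraries lay far below all WT libraries (log2 fold change -5.90, edgeR adjusted p = 0.000419). Library totals ran from 18240122 to 19670468 counts in hb34 and from 17562497 to 19537297 counts in WT. Library hb34 2 stood apart: on the first principal component, with 55.5% of the variance, it lay at 82.1, against 8.53 and 17.6 for the other hb34 libraries and -41.2 to -25.8 for WT. All 4 leaf photosynthetic markers were tested, with summed levels of 72621 to 80801 TPM (counts scaled by exon length and library) in hb34 and 71337 to 77458 TPM in WT. RBCS1A and LHCB1.3 overlapped between the groups. All hb34 libraries lay above WT for RCA (log2 fold change 0.53, edgeR adjusted p = 0.127) and below WT for RBCS3B (-0.36, adjusted p = 0.0844). Over all tested genes, 35.3% had groups without overlap. No root marker of 8 had more than 4 counts in any library, and PLT1, PLT2, WOX5, RHD6, EXPA7 and RSL4 were at 0 in all 6. Of 11 shoot meristem and primordium markers, WUS, CLV3, KNAT1 and CUC2 were at 0 and the summed level was 2.36 to 3.12 TPM in hb34 and 1.47 to 3.21 TPM in WT. Cells of the stomatal lineage also divide in young leaves, and their 7 marker genes summed to 6.14 to 8.98 TPM in hb34 and 7.02 to 12.1 TPM in WT. Most of each sum was FAMA, with 5.56, 7.07 and 5.15 TPM in hb34, against 9.77, 5.88 and 8.69 TPM in WT. Its log2 fold change was -0.54 (edgeR adjusted p = 0.149). Beyond the leaf markers, few genes of these lists had enough counts for the test described next. It covered 1 of the 11 shoot meristem and primordium markers, 2 of the 7 stomatal markers and 0 of the 8 root markers. None of the tested markers passed.

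Of the 44 genes, 42 had enough counts to test, and CYCD3;2, a D-type cyclin, was the only member that passed the test. It was lower in hb34. A member that did not pass was not thereby shown to be unchanged. In edgeR's quasi-likelihood test, with p-values adjusted by Benjamini and Hochberg's method across 17905 genes and called under 0.05, 0 members were higher and 1 was lower, or 2.38% of those tested. The same test called 6.27% of all tested genes, 3.77% higher and 2.5% lower, so the share among the members was not above that of all genes. The members had fewer counts, with a median level of 4.03 CPM, against 14.4 CPM over all tested genes. The part of depth in these shares was not tested. Upper quartile scaling called 536 genes higher and 615 lower (6.43%), against 675 and 447 with the scaling used here, and CYCD3;2 was the only member called there too. DESeq2 called E2FB higher and CYCD3;2 lower, where it called 9% of all its tested genes higher and 5.51% lower, or 14.5% in all. At an unadjusted p under 0.05, 2 members were higher and 5 lower, or 16.7%, against 29.7% of all tested genes (16.5% higher and 13.3% lower). Fitted log2 fold changes of the 42 ran from -0.67 for CYCD3;2 to 0.76 for E2FB, with a median of -0.02, against 0.01 over all tested genes. Positive values numbered 20 and negative values 22, and 0 of the 42 exceeded a 2-fold change. The 95% interval of the fold lay wholly within 2-fold for 23 of the 42, against 64.3% of all tested genes. In these bulk samples, fewer cells of a type and less RNA per cell cannot be told apart.

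**Figure D1:**
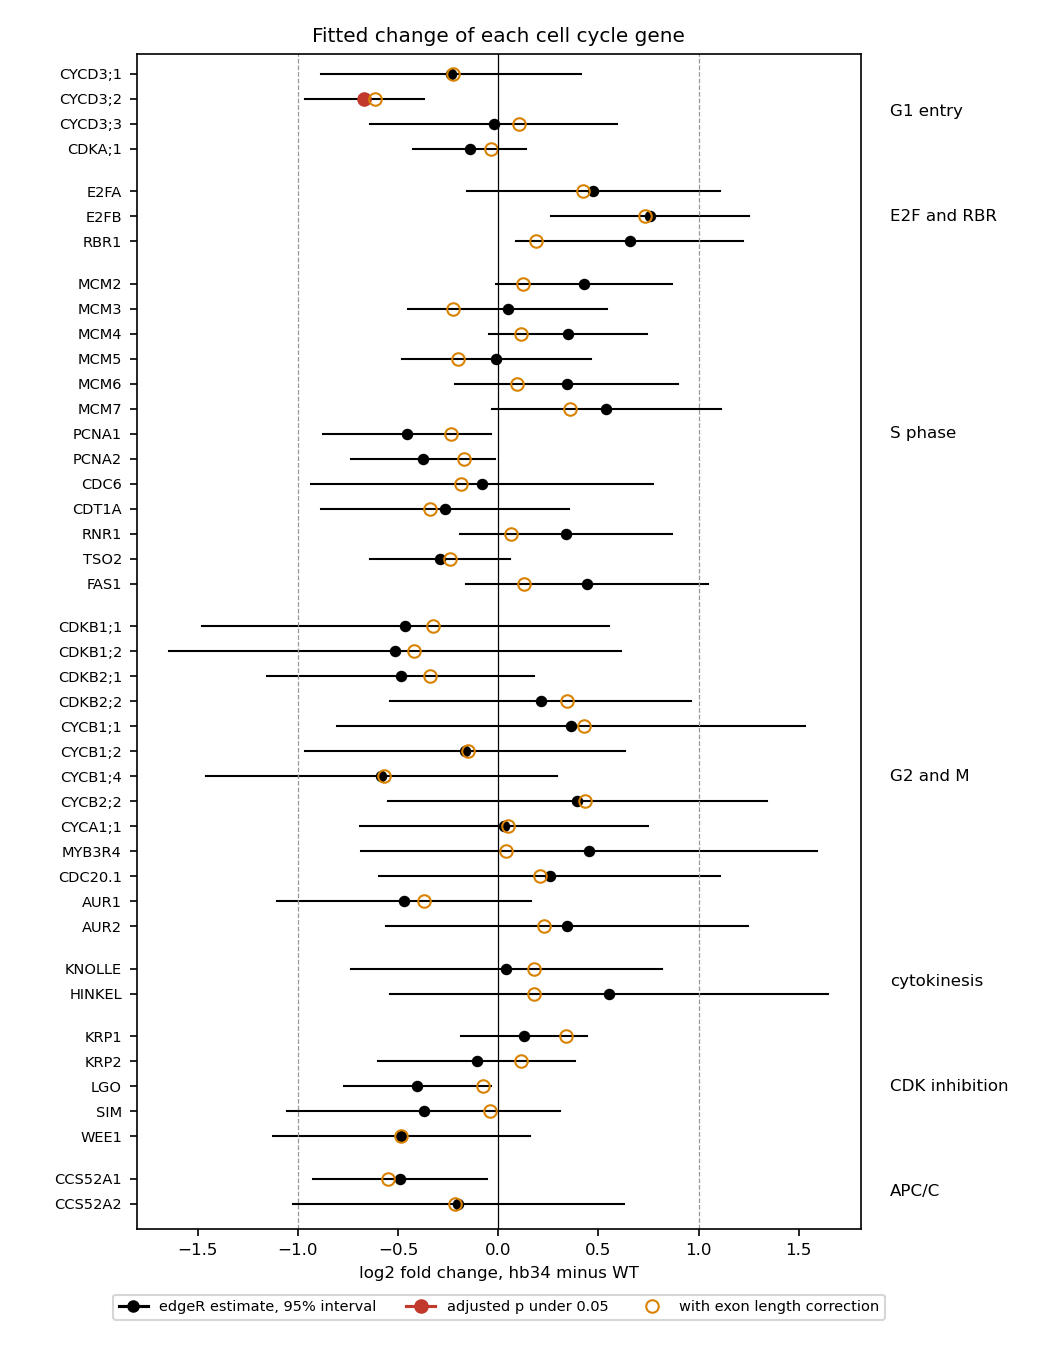
Fitted log2 fold change (hb34 minus WT) with its 95% interval for each of the 42 tested cell cycle genes, ordered by role; dashed lines mark a 2-fold change and open circles the estimate after a correction for exon length. CYCD3;2, in red, is the only gene with an adjusted p under 0.05, and the E2F and RBR genes sit to the right of 0.

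Some of these genes have, near their start, the letters of the E2F or MSA elements named above, and examples are shown because the elements are known to set the phase in which a gene is on. The window searched ran from 250 bases before to 50 bases after each gene start, in build TAIR10.1 with RefSeq gene models. It was searched on both strands for the E2F element, spelled TTTCCCGC, TTTGGCGC, TTTCGCGC or TTTGCCGC. Such a match lay in 9 of 44 member promoters (20.5%), against 1.76% of 27443 protein-coding promoters. A match lay in the window of 7 of the 13 S phase genes, among them every MCM gene except MCM7. The match of RNR1 lay after the gene start. Matches also lay before CYCD3;3 and RBR1. Sites of the MCM genes and of RBR1 are given on the strand of the gene, 5′ to 3′, with the matched letters in capitals.
MCM2 (chr1:16970189-16970218, plus strand): tggcgccaataTTTCCCGCctaatcgacga
MCM3 (chr5:18773858-18773887, minus strand): ggaaatcaaacGCGCCAAAcaagcgcgtag
MCM4 (chr2:7130746-7130775, minus strand): cagtaataatgGCGCCAAAatcaagtgaag
MCM5 (chr2:3527501-3527530, minus strand): cggcccatcagTTTCCCGCcacattgttcc
MCM6 (chr5:18010695-18010724, minus strand): tatactttttaGCGGGAAAatgttagagga
RBR1 (chr3:3919417-3919446, minus strand): caaatatgtaaTTTCCCGCgtgacctaaac

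FAS1 held a pair of E2F matches, 128 and 67 bases before its start. The core of the MSA element, CNAACGG on either strand, lay in 10 of 44 member promoters (22.7%), against 5.52% of all protein-coding promoters. It was found in 7 of the 15 G2 and M genes and in both cytokinesis genes, and CYCB1;2 had 5 matches. RBR1 held both kinds. The MSA sites of the mitotic cyclins CYCB1;1 and CYCB1;2 (the match nearest to, and before, its start) and of the cytokinesis genes are given in the same way, with the core in capitals.
CYCB1;1 (chr4:17624352-17624380, minus strand): aaacaatcagaCCGTTGGggttcatttat
CYCB1;2 (chr5:1861697-1861725, minus strand): caaaaatatgaCCGTTGGaattgaaccgt
KNOLLE (chr1:2710971-2710999, minus strand): ccaaaatatagCCGTTGGggcgaagaaat
HINKEL (chr1:6324372-6324400, minus strand): gaaagaactagCCGTTAGaggttcgtcag

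A match is a description of the letters and not a shown binding site. The 9 tested members with an E2F match had a median log2 fold change of 0.34, with 7 positive and 2 negative and none called, while the 33 without one had a median of -0.17. Over all tested protein-coding genes the medians were 0.10 for 325 genes with a match and 0.01 for 17030 without. Of these, 4% of the genes with a match and 6.37% of those without were called. The 9 tested members with an MSA core had a median of 0.34, against -0.11 for the 33 without one. RBR1 is in both sets, and the other members with an MSA core averaged under 3 CPM. All 1080 tested protein-coding genes with the core had a median of 0.05, against 0.01 for 16275 without. Apart from CYCD3;3, the members with an E2F match have 2691 to 3850 exon bases, and long genes were higher in hb34 over all genes, as described with exon length. The part of length in these medians was not tested.

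The only called member was 1 of the 4 G1 entry genes. CYCD3;2 (gene-AT5G67260, chromosome 5, 26836139 to 26839597, plus strand) belongs to the D3 cyclins, which prolong the dividing phase of leaf cells. It had 21.5, 18.7 and 21.7 CPM in hb34, against 34.6, 33.6 and 30.2 CPM in WT. The hb34 libraries lay close together and all of them below the lowest WT library. Per exon length its level was 19.6 ± 1.99 TPM in hb34 and 29.1 ± 1.73 TPM in WT (SD, n = 3 each). The log2 fold change was -0.67 (SE 0.13, 95% interval -0.97 to -0.37, edgeR adjusted p = 0.0317), so that the mean CPM in hb34 was 62.9% of that in WT.

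The CYCD3;2 call depended on the libraries used. It was lost without hb34 1 (edgeR adjusted p = 0.0541), without hb34 3 (adjusted p = 0.0645), without WT 1 (adjusted p = 0.138) and without WT 2 (adjusted p = 0.140). Its fold change moved little meanwhile, between -0.60 and -0.71 over all 6 libraries left out in turn. Over 17 alternatives it passed in 12, and adjusted p ran from 0.000969 with DESeq2 to 0.140. Exons of CYCD3;2 overlap those of AT5G67265 on the other strand over 6.12% of their bases, and that gene had 0 counts in all 6 libraries.

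The 250 bases before CYCD3;2 are shown because it is the only member called and HB34 encodes a homeodomain factor. Whether HB34 binds there was not tested. Capitals mark ATTA on either strand, the core that many homeodomain proteins bind.
CYCD3;2 (chr5:26835889-26836138, plus strand): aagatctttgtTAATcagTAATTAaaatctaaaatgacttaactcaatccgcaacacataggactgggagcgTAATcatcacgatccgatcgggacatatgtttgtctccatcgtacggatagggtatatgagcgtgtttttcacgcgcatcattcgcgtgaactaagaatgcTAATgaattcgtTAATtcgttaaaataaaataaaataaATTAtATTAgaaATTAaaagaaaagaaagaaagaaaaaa
ATTA occurs 9 times in this stretch and 10 times in the 300-base window, where the median over all protein-coding promoters is 6 and 98.5% of them hold at least 1 match. Members that were not called had as many or more, with 14 for CYCD3;3, 11 for KRP2 and CCS52A2 and 10 for CYCB1;4. Neither the E2F nor the MSA letters occur in the CYCD3;2 window.

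Its D3 relatives did not pass the test. CYCD3;1 had 2.84, 5.01 and 3.55 CPM in hb34, against 3.50, 4.33 and 5.57 CPM in WT, with wide overlap and a log2 fold change of -0.23 (SE 0.28, edgeR adjusted p = 0.595). CYCD3;3 had 3.97, 5.01 and 2.72 CPM in hb34, against 4.61, 3.80 and 3.47 CPM in WT, and a log2 fold change of -0.02 (SE 0.26). In both genes hb34 2 was the highest hb34 library, whereas it was the lowest for CYCD3;2. Whether CYCD3;2 differed from its relatives was not tested. Their shared partner CDKA;1, the CDK that drives both the G1 and the mitotic transitions, was among the steadiest members. It had 35.4, 40.2 and 39.4 CPM in hb34, against 43.8, 38.3 and 44.7 CPM in WT. Its groups overlapped, and its log2 fold change of -0.14 had a 95% interval of -0.42 to 0.14 (edgeR adjusted p = 0.459). All 4 G1 entry genes had negative fitted values, with a median of -0.19. With the length correction 1 of the 4 was positive.

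**Figure D2:**
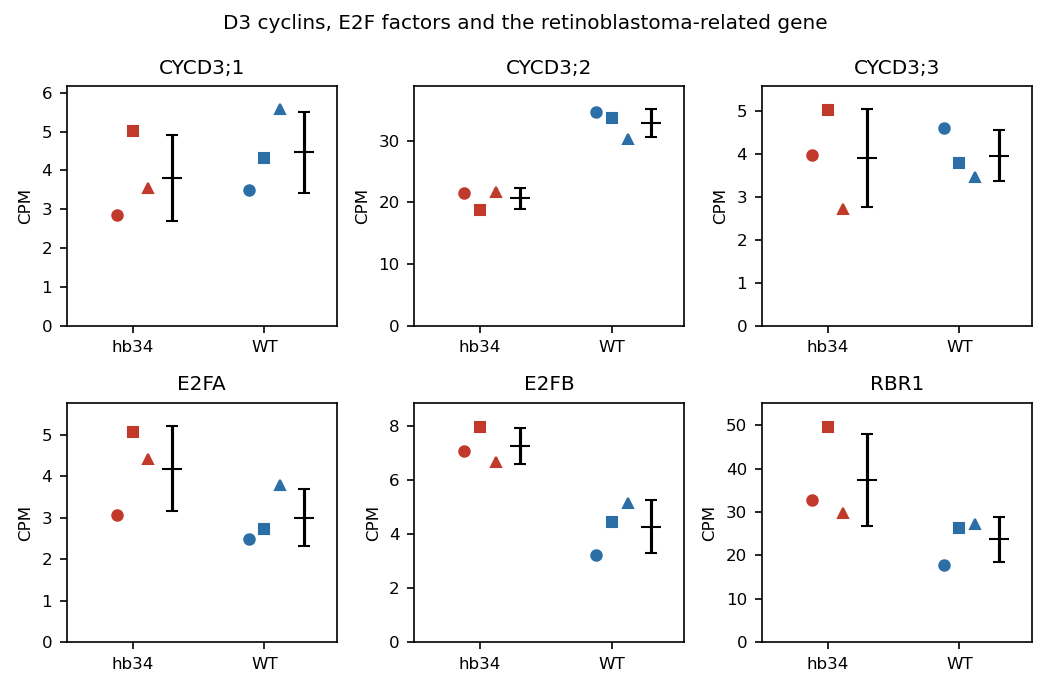
CPM of the D3 cyclins, both E2F factors and RBR1 in each library (circles, squares and triangles for replicates 1, 2 and 3), with the mean and SD of hb34 in red at the left and WT in blue at the right. The 3 hb34 libraries lie below WT for CYCD3;2 and above WT for E2FB and RBR1, and the groups overlap in the other panels.

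The E2F and RBR genes were the role group with the highest median, 0.66, but none of the 3 passed the threshold. That median was 0.42 with the correction for exon length. E2FB (gene-AT5G22220, chromosome 5, 7360535 to 7364505, plus strand) encodes an E2F that promotes division. It had 7.08, 7.97 and 6.68 CPM in hb34, against 3.23, 4.45 and 5.16 CPM in WT, and every hb34 library exceeded every WT library. The log2 fold change was 0.76 (SE 0.21, 95% interval of the fold 1.20 to 2.38), with an edgeR adjusted p of 0.0719. DESeq2 called it higher (adjusted p = 0.0402), and over all alternatives the adjusted p ran from 0.0402 to 0.222.

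RBR1 (gene-AT3G12280, chromosome 3, 3913349 to 3919359, minus strand), the repressor of the E2F factors, had 32.8, 49.5 and 29.8 CPM in hb34, against 17.7, 26.3 and 27.1 CPM in WT. The groups did not overlap, though hb34 3 lay just above WT 3, and hb34 2 stood well above the rest. The log2 fold change of 0.66 (SE 0.24, edgeR adjusted p = 0.125) was 0.40 without hb34 2. It was 0.19 (adjusted p = 0.571) with a correction for exon length. E2FA, which supports both division and the endocycle, had 3.06, 5.07 and 4.42 CPM in hb34, against 2.49, 2.73 and 3.78 CPM in WT. Its groups overlapped, and its log2 fold change was 0.47 (SE 0.27, edgeR adjusted p = 0.274). All 3 genes kept a positive sign under every scaling, and with each library left out in turn.

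Of 13 S phase genes none passed the test, and their median log2 fold change was 0.05, with 7 positive and 6 negative. The median turned to -0.04 with upper quartile scaling and to -0.17 with the correction for exon length. MCM2 to MCM7 form the ring-shaped helicase that opens DNA at replication origins, and their median of 0.34 was 0.10 after that correction. MCM2 had 9.39, 7.50 and 7.92 CPM in hb34, against 5.67, 5.40 and 7.31 CPM in WT (log2 fold change 0.43, SE 0.19, edgeR adjusted p = 0.176). MCM4 had 6.01, 6.39 and 6.94 CPM in hb34, against 5.30, 4.51 and 5.37 CPM in WT (0.35, SE 0.17, adjusted p = 0.213). For these genes of the helicase the hb34 libraries lay above all WT libraries. MCM7 had 6.66, 10.0 and 7.09 CPM in hb34, against 4.51, 4.86 and 6.95 CPM in WT, which overlap (0.54, SE 0.25, edgeR adjusted p = 0.188). MCM6 had a log2 fold change of 0.34, MCM3 of 0.05 and MCM5 of -0.01. Subunits of the ring thus had fitted values between -0.01 and 0.54, each with an SE of 0.17 to 0.25.

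PCNA, the sliding clamp of DNA polymerases, has a pair of genes here and both lay lower in hb34 without passing the threshold. PCNA1 had 4.08, 4.80 and 4.99 CPM in hb34, against 6.47, 5.57 and 6.95 CPM in WT. PCNA2 had 7.30, 8.81 and 7.76 CPM in hb34, against 11.1, 9.61 and 10.2 CPM in WT. In each the highest hb34 library lay below the lowest WT library. Log2 fold changes were -0.45 (SE 0.18, edgeR adjusted p = 0.143) for PCNA1 and -0.38 (SE 0.15, adjusted p = 0.153) for PCNA2. They were -0.24 (adjusted p = 0.493) for PCNA1 and -0.17 (adjusted p = 0.550) for PCNA2 with the correction for exon length. The value of PCNA2 is uncertain, since 23.6% of its exon bases are shared with AT2G29560 on the other strand, whose own log2 fold change was -0.34, and no source used here states whether counting used strand.

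Ribonucleotide reductase makes the building blocks of DNA. Its small subunit gene TSO2 had the highest level per length of all 44 members, 58.6 ± 11.2 TPM in hb34 and 67.1 ± 8.13 TPM in WT (SD, n = 3 each). It had 74.1, 59.0 and 53.3 CPM in hb34, against 81.9, 68.6 and 77.4 CPM in WT. The groups overlapped through hb34 1, and the log2 fold change was -0.29 (SE 0.15, edgeR adjusted p = 0.237). The large subunit gene RNR1 had 22.5, 35.0 and 21.9 CPM in hb34, against 21.5, 16.8 and 24.5 CPM in WT, a log2 fold change of 0.34 (SE 0.23). Of its libraries hb34 2 was far the highest. FAS1, the largest subunit of the chromatin assembly factor CAF-1, had a log2 fold change of 0.44 (SE 0.26). The licensing factors that load the MCM ring had -0.08 for CDC6 and -0.26 for CDT1A.

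**Figure D3:**
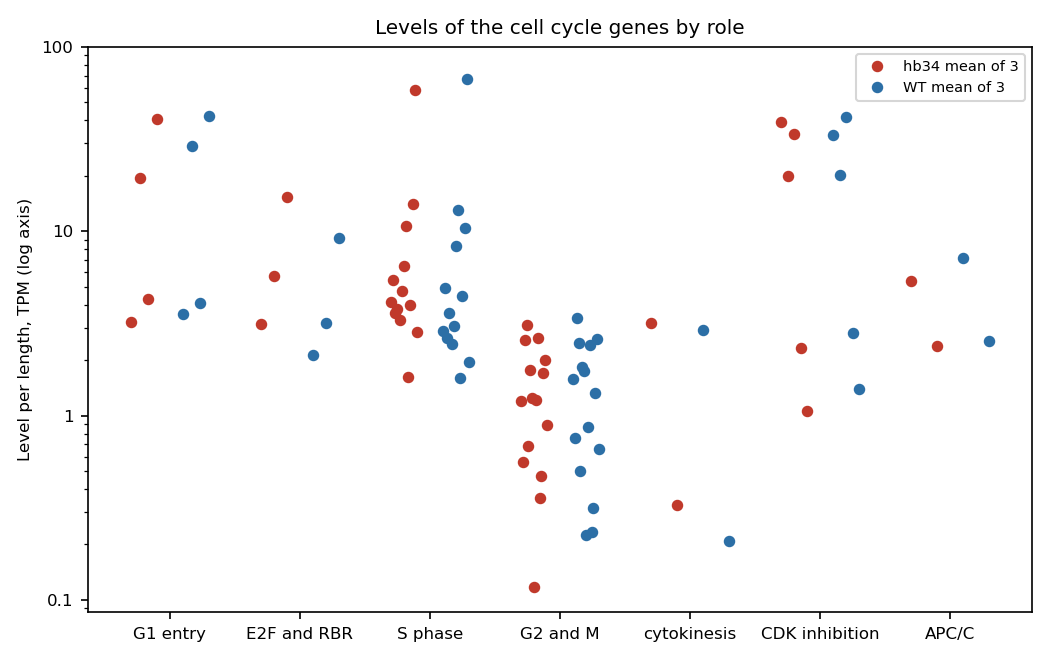
Mean level per exon length (TPM, log axis) of each of the 44 genes, with hb34 left of WT within each role. The G1, S phase and CDK inhibitor groups hold the highest genes, led by TSO2 at 58.6 TPM in hb34 and 67.1 TPM in WT, while no G2 and M gene reaches 4 TPM in either genotype.

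Genes of G2 and mitosis were low in both genotypes, which limits what could be seen. Of the 15, 13 were tested, and each of the 13 averaged under 3 CPM over the 6 libraries. CYCB2;1 had 2, 5 and 0 counts in hb34 and 6, 3 and 5 counts in WT, and CYCA2;4 had 13, 5 and 5 counts in hb34 and 0, 4 and 12 counts in WT. Both cyclins fell under the count filter. The 13 tested genes had a median log2 fold change of 0.03, with 7 positive and 6 negative, and none was called. With upper quartile scaling the median was -0.06. A 95% interval within 2-fold was reached by 3 of the 13, against 11 of 13 S phase genes, so a 2-fold difference in at least 1 direction lay inside the interval of most mitotic genes.

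CDKB2;1, a plant-specific mitotic CDK, had a level per length of 2.59 ± 0.775 TPM in hb34 and 3.39 ± 0.461 TPM in WT (SD, n = 3 each), the highest of the G2 and M genes over all 6 libraries. In hb34 alone, CDKB2;2 and CYCA1;1 had higher means. It had 2.74, 2.43 and 1.49 CPM in hb34, against 2.97, 3.74 and 2.66 CPM in WT. The groups overlapped through hb34 1, and the log2 fold change was -0.49 (SE 0.29, edgeR adjusted p = 0.285), or -0.26 without hb34 3. AUR1, an Aurora kinase of the mitotic spindle, had 2.25, 1.32 and 2.11 CPM in hb34, against 2.76, 2.85 and 2.30 CPM in WT. Its groups barely separated, with hb34 1 just under WT 3, and its log2 fold change was -0.47 (SE 0.27, edgeR adjusted p = 0.278), or -0.27 without hb34 2. AUR1 shares 19.2% of its exon bases with AT4G32840 on the other strand, so its value is uncertain. CYCB1;4 was the other gene of this role whose groups did not overlap, with 1.77, 0.633 and 1.85 CPM in hb34, against 2.28, 2.02 and 2.09 CPM in WT. Library hb34 2 was far the lowest, and the log2 fold change was -0.58 (SE 0.38).

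Members of the B1 cyclins and of the B-type CDKs did not share a sign. CYCB1;1, the usual marker of cells in G2 and mitosis, had a log2 fold change of 0.36 (SE 0.50) on 70 counts over all libraries. CYCB1;2 had -0.17 (SE 0.34), CDKB1;1 had -0.46, CDKB1;2 had -0.51 and CDKB2;2 had 0.21. The remaining fold changes were 0.40 for CYCB2;2, 0.03 for CYCA1;1, 0.45 for MYB3R4, which activates mitotic genes, 0.26 for CDC20.1, which activates APC/C in mitosis, and 0.34 for AUR2. In CDC20.1, 25% of its 100-base exon windows occur elsewhere in the genome, so its value is uncertain. AUR2 shares 36.9% of its exon bases with AT2G25890 on the other strand, which had 0 counts throughout. All exon bases of AT2G25890 lie within AUR2, so counting that ignored strand and dropped shared reads would also leave it at 0. The value of AUR2 is therefore uncertain. CDKB1;2 shares 18.3% of its exon bases with AT2G38630, and CDKB2;2 shares 13.8% with AT1G20925, both on the other strand.

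Cytokinesis was represented by a syntaxin and a kinesin that build the new cell wall. KNOLLE, the syntaxin, had 2.20, 3.11 and 3.03 CPM in hb34, against 3.50, 1.48 and 3.07 CPM in WT. These values overlap fully, and the log2 fold change of 0.04 (SE 0.33, edgeR adjusted p = 0.946) turned to -0.06 with upper quartile scaling. KNOLLE shares 33.5% of its exon bases with AT1G08550 on the other strand, which averaged 29.9 CPM in hb34 and 24.7 CPM in WT with a log2 fold change of 0.27. KNOLLE itself averaged 2.78 CPM in hb34 and 2.68 CPM in WT, so its value is uncertain where strand was not used in counting. HINKEL, the kinesin, had 0.644, 1.06 and 0.463 CPM in hb34, against 0.424, 0.474 and 0.562 CPM in WT. Only hb34 1 and hb34 2 exceeded WT, and the log2 fold change was 0.55 (SE 0.47, edgeR adjusted p = 0.449). It was 0.18 without hb34 2 and 0.18 with the length correction.

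Inhibitors of CDKs differed widely in level: KRP1 had 39.1 TPM in hb34 and 33.4 TPM in WT, and LGO had 33.8 TPM in hb34 and 41.7 TPM in WT, while SIM and WEE1 averaged under 3 CPM. The median log2 fold change of the 5 genes was -0.37, or -0.04 after the correction for exon length. LGO, an inhibitor of the SIAMESE family needed for giant cells, had 20.5, 14.4 and 17.5 CPM in hb34, against 24.5, 22.4 and 22.4 CPM in WT. Every hb34 library lay below every WT library, by a log2 fold change of -0.40 (SE 0.16, edgeR adjusted p = 0.140). With the length correction it was -0.08. LGO shares 40.3% of its exon bases with AT3G10527 on the other strand, which had 0 counts in all libraries. All exon bases of AT3G10527 lie within LGO, so counting that ignored strand and dropped shared reads would also leave it at 0. The value of LGO is therefore uncertain. Its relative SIM, which stops division in trichomes, had a log2 fold change of -0.37 (SE 0.29). SIM shares 31.4% of its exon bases with AT5G04475 on the other strand, so its value is uncertain too.

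KRP1, a CDK inhibitor of the KRP family, had 26.7, 28.1 and 31.8 CPM in hb34, against 24.9, 29.6 and 24.7 CPM in WT, which overlap, and a log2 fold change of 0.13 (SE 0.14). KRP2 had 14.5, 10.4 and 17.6 CPM in hb34, against 16.0, 16.6 and 13.2 CPM in WT, and -0.11 (SE 0.21). Neither of these relatives differed beyond its spread. WEE1, the kinase that restrains CDKs when replication is blocked, had 1.07, 1.37 and 1.34 CPM in hb34, against 1.59, 1.60 and 2.09 CPM in WT. Its groups did not overlap, but at these low counts the log2 fold change of -0.48 (SE 0.28) had an edgeR adjusted p of 0.271.

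CCS52A1, an APC/C activator that promotes the endocycle, had 6.44, 7.34 and 7.97 CPM in hb34, against 10.9, 8.12 and 11.5 CPM in WT. All hb34 libraries lay below WT, though hb34 3 came close to WT 2. Its log2 fold change was -0.49 (SE 0.19, edgeR adjusted p = 0.133), and -0.55 (adjusted p = 0.143) with the length correction. CCS52A2 had 3.60, 1.53 and 3.70 CPM in hb34, against 3.29, 2.61 and 4.19 CPM in WT, with overlap and a log2 fold change of -0.20 (SE 0.36).

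Across roles, the CPM of the groups did not overlap for 12 of the 42 tested genes (28.6%), against 35.3% of all tested genes. The hb34 libraries lay above WT for E2FB, RBR1, MCM2 and MCM4, against a background of 17.8%. They lay below WT for CYCD3;2, PCNA1, PCNA2, CYCB1;4, AUR1, LGO, WEE1 and CCS52A1, against a background of 17.5%. Library hb34 2 was the highest of the 6 for 10 of the 42 and the lowest for 9, while over all tested genes it was the highest for 28.3% and the lowest for 28.1%. Set against the WT mean, the median member was at -0.03 in hb34 1, -0.11 in hb34 2 and 0.05 in hb34 3 on the log2 scale. Summed over the 44 genes, levels per length were 357, 332 and 341 TPM in hb34, against 364, 322 and 373 TPM in WT. These sums overlap, and genes with high levels, such as TSO2, weigh most in them. Library hb34 1 was the lowest of the 6 for 11 of the 42 (26.2%), against 12.8% of all tested genes. WT 3 was the lowest for 2 (4.76%), against 10.9%.

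**Figure D4:**
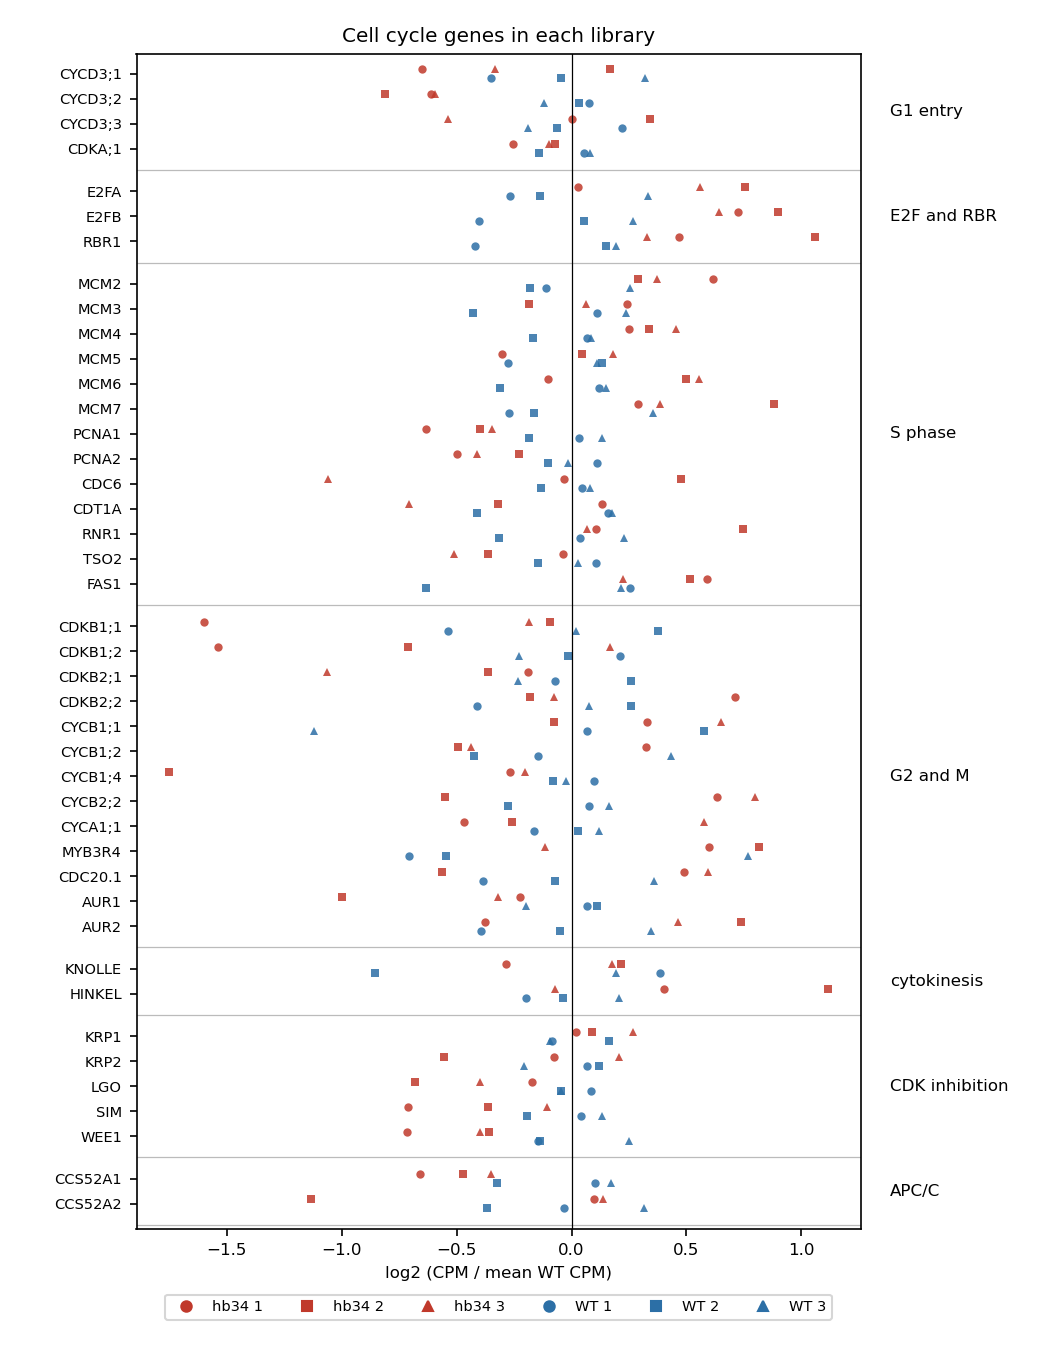
Level of each of the 42 tested genes in each library, as log2 of its CPM over the mean WT CPM, by role; hb34 libraries are red and drawn above the blue WT libraries, with a symbol for each replicate. The red and blue points are apart for 12 genes, such as CYCD3;2 and E2FB, and mixed for the rest.

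Exon length moved with the sign of the change, among these genes and over all genes. Over all tested genes, the median log2 fold change was -0.33 for 2210 genes with under 1000 exon bases and 0.48 for 2379 genes with 3000 or more, of which 300 were called higher and 3 lower. All 7 tested members of at least 3000 bases, RBR1, MCM2, MCM3, RNR1, FAS1, MYB3R4 and HINKEL, had positive fold changes. Both members under 1000 bases, LGO and SIM, had negative ones. From 1000 to under 2000 bases, 6 members were positive and 16 negative. The median exon length was 2514 bases for positive and 1607 bases for negative members, and Spearman's rho of length and fold change was 0.59 across the 42 genes and 0.46 across all 17905, all of which share the same 6 libraries.

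The pattern was present in every hb34 library. Relative to the WT mean, genes of at least 3000 bases had a median of 0.48 in hb34 1, 0.62 in hb34 2 and 0.32 in hb34 3. Among the WT libraries, WT 3 was at 0.21, against -0.12 in WT 1 and -0.07 in WT 2. A fit that removed the trend with length in each library called 327 genes higher and 224 lower (3.08%). CYCD3;2 was again the only member called (log2 fold change -0.61, edgeR adjusted p = 0.0352), and E2FB had 0.73 (adjusted p = 0.104). The members' median was then 0.0011. The cause of the trend and its part in the members' values were not tested.

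**Figure D5:**
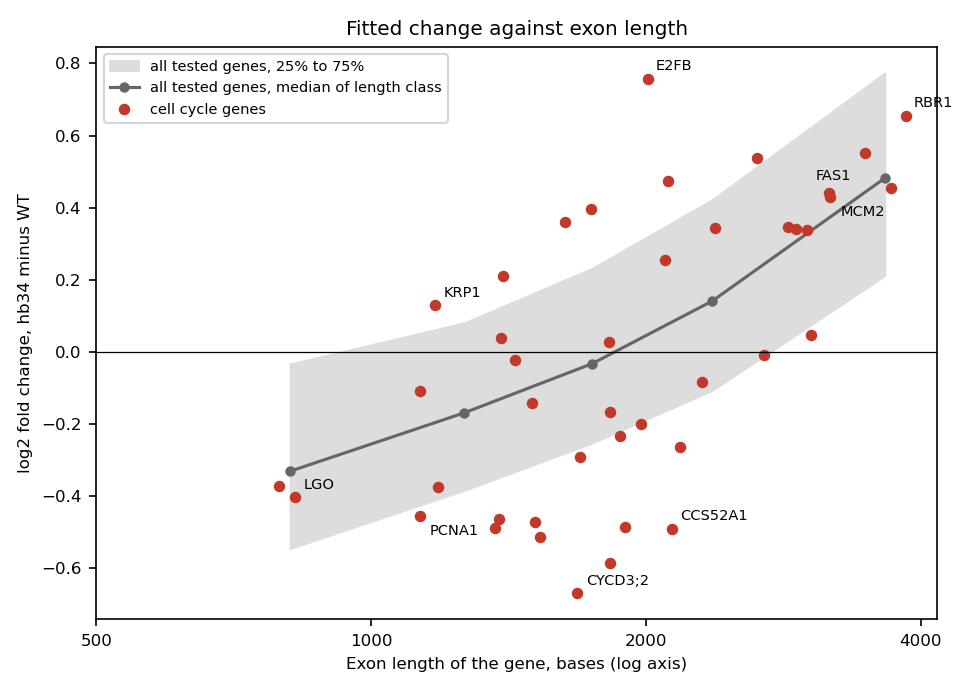
Fitted log2 fold change (hb34 minus WT) of the 42 tested cell cycle genes against exon length (log axis), with the median and the interquartile band of all tested genes in 5 length classes. The median of all genes climbs with length, from -0.33 to 0.48; RBR1, FAS1 and MCM2 lie near it, while E2FB lies above and CYCD3;2 and CCS52A1 below the band.

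Of 100 other cell cycle genes, 85 were tested, and 1 was higher and 1 lower, or 2.35%, against 6.27% of all tested genes. Their median log2 fold change was 0.01, 7 of them exceeded a 2-fold change in the fit, and 24.7% had an unadjusted p under 0.05, against 29.7% of all tested genes. The gene that rose was AT1G08260 (TIL1), the catalytic subunit of DNA polymerase epsilon. It had 6.01, 8.23 and 7.40 CPM in hb34, against 3.39, 3.02 and 4.39 CPM in WT, without overlap (log2 fold change 0.99, SE 0.22, edgeR adjusted p = 0.0426). At 8805 exon bases it is a very long gene. Its log2 fold change was 0.01 (adjusted p = 0.983) with the length correction, and its call was lost when any library other than hb34 1 was left out.

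The gene called lower was AT1G10690, annotated by RefSeq as a cyclin-dependent kinase inhibitor. Genes next to it on chromosome 1 also differed between the genotypes, as given under other observations. It had no count in any hb34 library, against 28, 43 and 45 counts in WT (edgeR adjusted p = 0.0171). If 3 counts are allowed for the hb34 group as a whole, it was at least 39.9-fold lower in hb34. Its call was lost without WT 1 (adjusted p = 0.0790) or WT 2 (adjusted p = 0.0982). In the other lists the smallest p belonged to CYCD6;1 (log2 fold change -0.99, edgeR adjusted p = 0.139), DEL1, an atypical E2F that holds back the endocycle (-0.98, adjusted p = 0.0765), and KEU, a partner of KNOLLE in cytokinesis (0.72, adjusted p = 0.0559). None of these passed the threshold, though DESeq2 and robust dispersions called KEU higher.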

How the data were processed

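RNA-seq libraries of 3 hb34 and 3 WT samples were grouped by sample title. The authors deposited raw counts per gene with exon coordinates and exon length, 1 table per library, and they were used as deposited. HISAT2 2.1.0 and DESeq2 1.30.1 are named, per the submitters' processing notes, with build TAIR10 and no role. No source used here names the counter, its strand setting or its handling of multiply matching reads, so overlapping or repeated genes are uncertain.

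Genes passing filterByExpr (minimum count 10, minimum total 15) were scaled by TMM and tested, two-sided, with edgeR 4.0.16 in R 4.3.3 (glmQLFit, glmQLFTest; genotype as the only term). Intervals are 95% from the fit. CPM use scaled library sizes, and TPM were computed from counts and exon lengths. A count of 3 equals 0.153 to 0.178 CPM; floors cover counting error only. Of 37971 genes in the RefSeq TAIR10.1 table, 37968 lay inside the same reference gene. Alternatives used DESeq2 1.42.0, limma 3.58.1 and other settings. The fit was tested on simulated data. Named with full values were every member called and, per role, the member with the smallest p and the highest level; MCM4, MCM7, PCNA2, RNR1, CYCB1;4, E2FA, KRP1, KRP2, WEE1 and other members were added after their values were seen. Members and lists were chosen with earlier results of these data known.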

Additional observations from a re-analysis of the deposited data

How the results depend on the processing

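Over 17 alternatives, 15 of them planned and 2 (leaving out the first 2 Mb of chromosome 2, where many calls cluster, and the exon length correction) chosen after seeing the data, members called numbered 0 or 1 per direction. No member was higher except with DESeq2 (1, E2FB). Members lower numbered 0 to 1 with a library left out and 0 with the replicate block. All genes higher numbered 1652 with DESeq2, 2 with the block, 383 without the chromosome 2 segment, 327 with the length correction and 1 to 853 with a library left out. All genes lower numbered 1012 with DESeq2, 3 with the block, 224 with the length correction and 2 to 503 with a library left out. Calls in both directions fell to 3 without WT 1, 4 without WT 2 and 389 without hb34 3. Other cell cycle genes higher numbered 5 with DESeq2, 2 with robust dispersions, 0 with the block, 0 with the length correction and 0 to 1 with a library left out. Other cell cycle genes lower numbered 0 with the block and 0 to 1 with a library left out. The members' median log2 fold change was -0.11 with upper quartile scaling and -0.061 to 0.076 with a library left out. KNOLLE was at -0.055 with upper quartile scaling and -0.23 to 0.28 with a library left out. The cause of these moves was not tested.

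Replicate numbers did not pair the samples: deviations of same-numbered libraries correlated at -0.097, -0.115 and -0.263. With the replicate block CYCD3;2 had a log2 fold change of -0.67 and an edgeR adjusted p of 0.131. Depth was low for the mitotic genes: 18 of the 42 tested members, 13 of them of G2 and M, averaged under 3 CPM. Over all tested genes, 3306 of 17905 averaged under 3 CPM.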

Other observations

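AT1G10690 lies on chromosome 1 (3549920 to 3550848, minus strand) next to other genes that differed between the genotypes. Its neighbour PRS3 (AT1G10700) had 0 counts in each hb34 library, against 522, 480 and 439 counts in WT. PHS1 (AT1G10710), beyond it, had 20, 27 and 21 counts in hb34, against 2, 1 and 0 counts in WT. Between them AT1G10705 had 0 counts in all 6 libraries. On the other side AT1G10682 had 260, 257 and 348 counts in hb34, against 547, 477 and 425 counts in WT (log2 fold change -0.80, edgeR adjusted p = 0.0436). These neighbours were chosen after the values of AT1G10690 were seen. Why genes of this stretch differed between the genotypes was not tested.

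Among the other mitotic genes, CYCB1;3, chosen after its values were seen, had 0.429, 0.528 and 0.463 CPM in hb34, against 1.22, 1.01 and 1.58 CPM in WT. All hb34 libraries lay below WT, but the gene did not pass the test (log2 fold change -1.42, SE 0.37, edgeR adjusted p = 0.0605). TOPII, a DNA topoisomerase gene of 5003 exon bases also chosen after its values were seen, had 2.20, 3.80 and 1.44 CPM in hb34, against 1.01, 0.593 and 1.33 CPM in WT (log2 fold change 1.32, SE 0.46, edgeR adjusted p = 0.112). ORC4, a subunit of the origin recognition complex, had 8.05, 7.28 and 8.95 CPM in hb34, against 5.09, 5.99 and 3.63 CPM in WT (log2 fold change 0.73, edgeR adjusted p = 0.0816). It lies in the first 2 Mb of chromosome 2, where none of the 44 members lies.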
